A study of Mus musculus with 9 samples.

Results

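The 35 genes described here are genes of the ATF4 amino acid and stress response, chosen by name and matched by gene ID among the 30407 features that the annotations of both experiments share. All 35 were found. RNA of single NIH3T3-CG cells, a line labelled as mouse embryonic fibroblasts, was counted with the 3' kit of 10x Genomics during treatment with SAG, an agonist of the Hedgehog pathway that activates Smoothened. In Experiment 2 cells were taken at 0, 19 and 30 h of SAG with Dox and, at the same times, without it. In Experiment 1 they were taken at 0, 17 and 30 h of SAG, and the labels do not mention Dox, so these libraries were taken as without it. Each of the 9 conditions within an experiment is 1 library. All libraries come from the same line. What Dox induces is not stated in the labels, nor is the meaning of the suffix CG. No library was kept without SAG for 17 h or longer, so SAG and time in culture cannot be told apart.

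ATF4 is a transcription factor whose messenger RNA is translated preferentially when kinases that sense amino acid shortage, unfolded protein, heme shortage or viral RNA phosphorylate the translation factor eIF2 alpha. It switches on genes for amino acid synthesis and uptake and for the loading of transfer RNAs, and, when stress lasts, the gene of the transcription factor CHOP, Ddit3. Feedback is built in, since the product of a target, Ppp1r15a, brings a phosphatase to eIF2 alpha. In fibroblast cultures the genes are known to follow the supply of amino acids and serum.

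ATF4 binds with C/EBP partners at composite sites, commonly written TGATGNAA, with N for any base. Promoters of the members are shown because the members are grouped by this factor. In RefSeq promoters on GRCm38.p6, each 250 bases before to 50 after a gene's start, 28 of the 35 members had an entry, and 10 of these 28 (35.7%) held the motif on either strand (TGATGNAA, or TTNCATCA on the other strand, overlaps counted). Of the 27025 genes listed there, 4.51% did. The 10 were Asns, Chac1, Trib3, Pycr1, Slc7a11, Slc1a4, Nupr1, Vldlr, Aars and Gars, with 2 matches in Slc7a11 and in Aars. A match is a string of letters and not a measured binding site. The 250 bases before the start are given for 4 members to which the results below return, with the motif in capitals, 5' to 3' on the strand of the gene: Asns at chr6:7693210-7693459 on the minus strand, Chac1 at chr2:119350992-119351241 on the plus strand, Nupr1 at chr7:126625471-126625720 on the minus strand and Slc7a11 at chr3:50443614-50443863 on the minus strand.
Asns: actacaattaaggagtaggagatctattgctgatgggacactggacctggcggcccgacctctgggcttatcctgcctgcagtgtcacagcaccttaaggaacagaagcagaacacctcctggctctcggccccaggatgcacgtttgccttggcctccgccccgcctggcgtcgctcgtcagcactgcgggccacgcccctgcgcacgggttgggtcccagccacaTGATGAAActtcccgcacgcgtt
Chac1: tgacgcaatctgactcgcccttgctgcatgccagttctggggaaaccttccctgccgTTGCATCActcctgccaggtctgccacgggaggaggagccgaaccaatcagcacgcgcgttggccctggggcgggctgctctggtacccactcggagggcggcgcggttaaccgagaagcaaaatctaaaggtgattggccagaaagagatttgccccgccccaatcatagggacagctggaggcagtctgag
Nupr1: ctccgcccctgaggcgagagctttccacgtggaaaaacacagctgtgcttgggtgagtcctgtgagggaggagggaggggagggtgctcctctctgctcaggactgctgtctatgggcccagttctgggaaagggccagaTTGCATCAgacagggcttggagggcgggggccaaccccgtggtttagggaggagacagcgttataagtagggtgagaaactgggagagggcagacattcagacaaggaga
Slc7a11: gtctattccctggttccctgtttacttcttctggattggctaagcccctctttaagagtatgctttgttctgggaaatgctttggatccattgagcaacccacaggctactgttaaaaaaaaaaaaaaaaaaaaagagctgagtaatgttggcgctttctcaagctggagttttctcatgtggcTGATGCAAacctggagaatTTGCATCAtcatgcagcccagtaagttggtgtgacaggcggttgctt

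The counts come from barcodes of 5000 or more UMIs of which no more than 10% were mitochondrial: 571 to 6520 cells and 19422658 to 106128757 UMIs per library. The mitochondrial limit removed 25.9% to 46.3% of barcodes, and cells above it had fewer UMIs of the 35 genes per 10000 UMIs in all 9 libraries. Mitochondrial UMIs count among these 10000, so part of that difference is given by the denominator. Of the kept cells, 18.2% and 17.9% had under 1% mitochondrial UMIs at 19 and 30 h with Dox, as had 19.7% at 30 h without Dox in Experiment 2, against 0.429% to 1.41% in the other 6 libraries. Any 2 libraries shared at most 9 kept barcodes. One library stands apart: that at 19 h without Dox in Experiment 2 had 24730 barcodes and a median of 8025 UMIs per kept cell, against 28335 to 48188 in the other libraries of Experiment 2, and 2610 of its 6520 kept cells reached 10000 UMIs. In CPM, UMIs scaled to a common library size, all 9 fibroblast markers were present in all libraries, from Thy1 (12.7 to 158) and Pdgfrb (15.9 to 56.3) to Vim (1854 to 3437) and Fn1 (1324 to 3499). Of 24 markers of other cell types 16 stayed under 1 CPM in all libraries, Ptprc, Adgre1, Epcam, Cdh1, Cdh5 and Sox10 among them. Those that reached more include the smooth muscle and myofibroblast genes Acta2 (77.8 to 371), Tagln (57.5 to 173) and Des (3.35 to 5.15), Cd68 (0.652 to 13.8), Fabp4 (0.218 to 6.25), Tubb3 (2.37 to 4.5) and Tek (0 to 1.14). SAG raised its known targets, Gli1 by 6.46 (SE 0.53, adjusted p = 3.71e-09) and Ptch1 by 2.60 (SE 0.40, adjusted p = 0.000558) on the log2 scale at 30 h without Dox (edgeR quasi-likelihood test, Benjamini-Hochberg adjustment).

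All members had UMIs in all 9 libraries, but their depth differed widely. Slc7a3, a carrier of cationic amino acids, had 8 to 38 UMIs per library, and Slc7a11, which exchanges cystine for glutamate, had 8 to 246. Across kept cells thinned to 10000 UMIs, the 35 genes together had a median of 21, 21 and 22 UMIs per cell at 0, 19 and 30 h with Dox, 25, 28 and 30 without Dox in Experiment 2, and 41, 36 and 40 at 0, 17 and 30 h in Experiment 1. These values are not scaled for library composition. In library sums scaled with TMM factors (trimmed mean of M values), the genes had 2881, 2397 and 2554 CPM with Dox. They had 4168, 3823 and 3584 CPM without Dox in Experiment 2, and 3686, 3441 and 3762 CPM in Experiment 1. Ddit3 alone averaged 9.01, 9.99 and 11.2 UMIs per thinned cell in Experiment 1, of 43.0, 38.1 and 41.6 for all 35 genes. In fewer cells of a kind or in less RNA per cell a library sum falls alike, and the sums alone do not tell these apart.

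Of the regulators, Atf4 itself had 179, 163 and 184 CPM at 0, 19 and 30 h with Dox, 237, 224 and 249 CPM without Dox in Experiment 2, and 512, 374 and 392 CPM at 0, 17 and 30 h in Experiment 1 (CPM scaled with TMM factors, the trimmed mean of M values). Ddit3, which encodes CHOP, had 109, 78.5 and 72.8 CPM with Dox, 246, 235 and 165 CPM without Dox in Experiment 2, and 769, 869 and 994 CPM in Experiment 1. In both genes the 3 arms did not overlap with TMM: Experiment 1 was highest and Experiment 2 with Dox lowest. Scaled by library totals, Ddit3 kept this order, but the Experiment 2 arms of Atf4 overlapped. Atf4 then had 161, 193 and 217 CPM with Dox and 164, 182 and 246 CPM without Dox. Trib3, a pseudokinase that binds ATF4, had 15.7, 17.1 and 21.8 CPM with Dox, 17.4, 20.6 and 31.9 CPM without Dox, and 34.2, 32.2 and 33.3 CPM in Experiment 1. Ppp1r15a, the phosphatase subunit named above, had 32.7, 27.9 and 25.3 CPM with Dox, 50.3, 49.7 and 46.6 CPM without Dox, and 97.9, 77.3 and 80.5 CPM in Experiment 1. The arms of Ppp1r15a stood in the order of Atf4 and Ddit3, while Trib3 overlapped between the Experiment 2 arms. Nupr1, a small chromatin protein induced by stress, had 446, 229 and 232 CPM with Dox, 738, 568 and 341 CPM without Dox, and 158, 158 and 187 CPM in Experiment 1. Eif4ebp1, which holds back translation when mTORC1 is low, had 396, 315 and 333 CPM with Dox, 595, 649 and 503 CPM without Dox, and 323, 289.5 and 341 CPM in Experiment 1. Nupr1 and Eif4ebp1 were highest without Dox in Experiment 2 at each time, and Nupr1 was lowest in Experiment 1.

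Of the enzymes, Asns, which makes asparagine, had 125, 127 and 137 CPM with Dox, 185, 214 and 231 CPM without Dox, and 151, 151 and 163 CPM in Experiment 1, without overlap between arms. Scaled by library totals its arms overlapped, at 112 to 161 CPM with Dox, 128 to 228 CPM without Dox and 167 to 180 CPM in Experiment 1. Chac1, which breaks down glutathione, had 15.7, 15.2 and 16.5 CPM with Dox, 21.8, 26.7 and 29.3 CPM without Dox, and 15.1, 10.9 and 8.78 CPM in Experiment 1. The serine pathway runs from Phgdh over Psat1 to Psph. Phgdh had 126, 109 and 115 CPM with Dox, 183, 196 and 163 CPM without Dox, and 99.2, 90.8 and 103 CPM in Experiment 1. Psat1 had 96.5, 88.7 and 98.3 CPM with Dox, 117, 106 and 127 CPM without Dox, and 94.2, 84.5 and 86.2 CPM in Experiment 1. Psph had 76.9, 41.1 and 40.4 CPM with Dox, 123, 103 and 61.4 CPM without Dox, and 20.6, 22.1 and 19.3 CPM in Experiment 1. All 3 were highest without Dox in Experiment 2 at each time, and the gap to Experiment 1 was far wider for Psph than for Psat1. Scaled by library totals this order held for Phgdh and Psph but not for Psat1. Psat1 then had 81.0, 86.0 and 125 CPM without Dox in Experiment 2 and 110, 93.6 and 95.2 CPM in Experiment 1. Shmt2 and Mthfd2 carry the carbon of serine into folate in mitochondria. Shmt2 had 29.0, 33.5 and 42.7 CPM with Dox, 40.5, 43.6 and 55.0 CPM without Dox, and 39.5, 29.0 and 34.7 CPM in Experiment 1. Mthfd2 had 68.7, 60.3 and 67.0 CPM with Dox, 96.4, 101 and 100.1 CPM without Dox, and 93.8, 84.2 and 78.2 CPM in Experiment 1. Cth, which makes cysteine from cystathionine, had 11.0, 4.69 and 4.18 CPM with Dox, 17.6, 10.7 and 7.73 CPM without Dox, and 7.26, 7.35 and 3.98 CPM in Experiment 1.

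Of the carriers, Slc7a11 had 2.18, 1.16 and 1.19 CPM with Dox, 3.89, 2.69 and 2.36 CPM without Dox, and 1.12, 0.977 and 0.309 CPM in Experiment 1. Slc7a5, the light chain of a large neutral amino acid exchanger, had 21.5, 13.4 and 13.6 CPM with Dox, 32.8, 20.1 and 20.1 CPM without Dox, and 16.3, 14.9 and 12.7 CPM in Experiment 1. Slc1a5, a glutamine carrier, had 43.2, 32.2 and 41.3 CPM with Dox, 70.0, 48.3 and 67.6 CPM without Dox, and 38.8, 30.8 and 32 CPM in Experiment 1. The 3 carriers were highest in Experiment 2 without Dox at each time. Scaled by library totals this held except for Slc7a5 at 19 h, with 16.4 CPM beside 16.5 CPM at 17 h in Experiment 1. Of the transfer RNA synthetases, Gars, which loads glycine, had 118, 129 and 155 CPM with Dox, 160.1, 162 and 221 CPM without Dox, and 161, 144 and 157 CPM in Experiment 1.

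**Figure D1:**
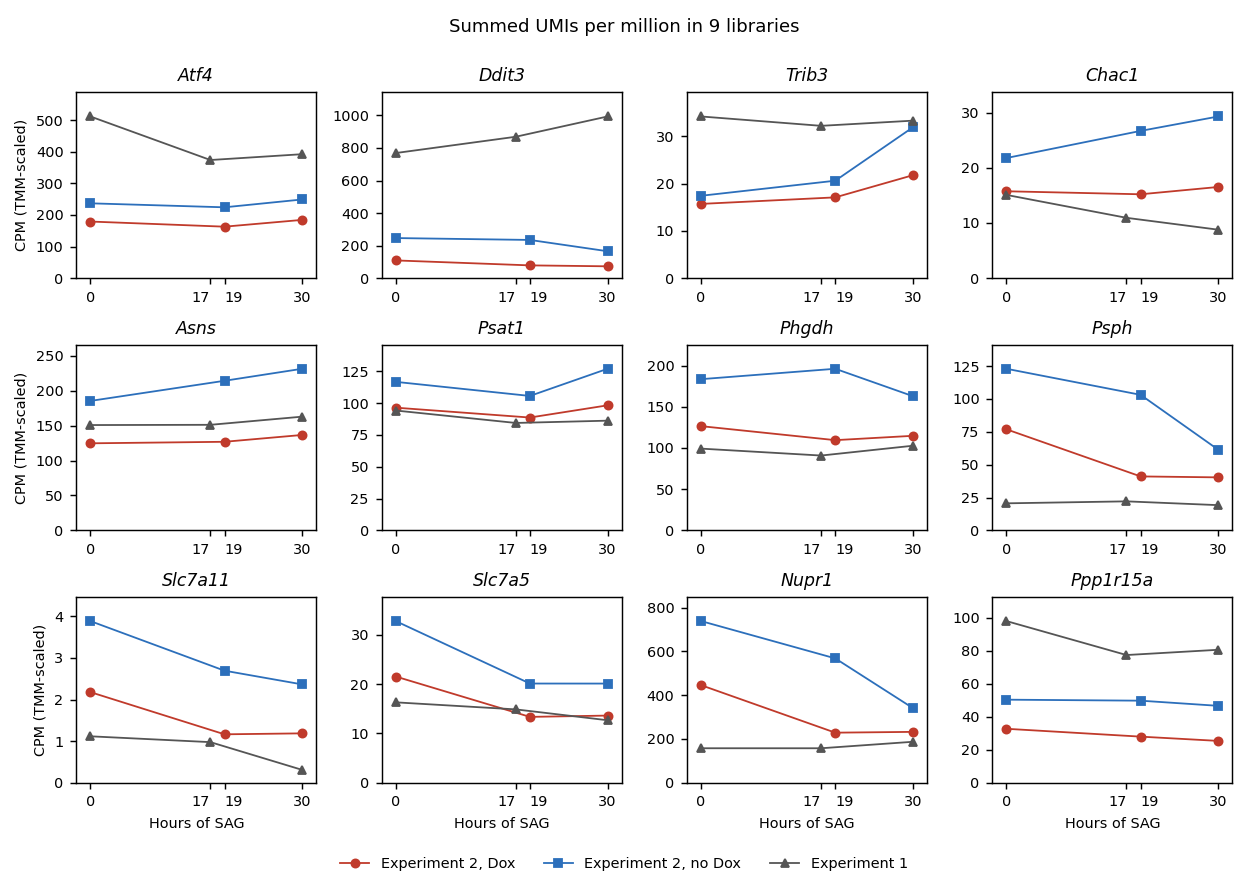
TMM-scaled CPM (vertical axis) of 12 members against hours of SAG (horizontal axis), 1 point per library and lines joining the libraries of an arm: red circles Experiment 2 with Dox, blue squares Experiment 2 without Dox, grey triangles Experiment 1. For Ddit3 the 3 Dox points lie at 72.8 to 109 CPM, below the 165 to 246 CPM without Dox and the 769 to 994 CPM of Experiment 1.

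The first comparison asked whether the genes changed with SAG. Without Dox, 0 of the 35 members were called at 30 h against 0 h by edgeR with the experiment as a block, where 64 of 14354 genes (0.446%) were called. Of the members 6 had an unadjusted p under 0.05, and DESeq2 called 0 (0.0836% of genes). Cth, at 7.73 and 3.98 CPM at 30 h against 17.6 and 7.26 CPM at 0 h in Experiment 2 and Experiment 1, had a log2 change of -1.04 (SE 0.25, adjusted p = 0.0571). Psph had -0.56 (SE 0.26, adjusted p = 0.459) and Slc7a5 had -0.55 (SE 0.23, adjusted p = 0.399). The experiments differed here: Psph stood at -1.0 in Experiment 2 and -0.10 in Experiment 1, a difference that was not tested. At 17 to 19 h 0 members were called (16 of 14354 genes, 0.111%), with 0 at an unadjusted p under 0.05, and DESeq2 called 0 (0.0488%). From 17 to 19 h to 30 h 0 were called, where 1 gene in all was (0.00697%), with 1 member (Cth, -0.67) at an unadjusted p under 0.05, and DESeq2 called 0 (0.0%).

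Over the 3 arms together, each arm set against its own 0 h library, 3 of the 35 members fell at 30 h, beside 511 of 13837 genes (3.69%). In log2 units Cth fell by 1.18 (SE 0.20, adjusted p = 0.0295), Slc7a5 by 0.59 (SE 0.14, adjusted p = 0.0417) and Ddit4, which restrains mTORC1 signalling, by 0.59 (SE 0.14, adjusted p = 0.0461). Ddit4 had 10.3 CPM at 30 h against 17.3 CPM at 0 h with Dox, 14.1 against 20.4 CPM without Dox in Experiment 2, and 8.85 against 12 CPM in Experiment 1. The 3 genes were lower at 30 h in each arm. Psph (-0.70, SE 0.20, adjusted p = 0.0633), Nupr1 (-0.61, SE 0.26, adjusted p = 0.134) and Mars1, the methionine transfer RNA synthetase (0.58, SE 0.17, adjusted p = 0.0637) did not pass. The median over the 35 was -0.08 and that over all genes about 0. These 3 calls depend on the scaling and on single libraries: scaled by library totals, which shifts the median of all genes to 0.28, 0 members were called (0.0867% of genes; 10 members at an unadjusted p under 0.05), while DESeq2 called 7 (13.6% of genes). Without the 0 h library of Experiment 1, 9 members were lower and 6 higher, where 43.3% of all genes were called, and without the 30 h library of Experiment 1, 6 were lower and 4 higher, where 28.6% were, so that both counts lie near the share of all genes. Without the 17 h library of Experiment 1 (0.55% of genes) or the 19 h library with Dox (1.09%) 1 member was called, and without any other library 0, that at 19 h without Dox included. At 17 to 19 h over the 3 arms 0 members were called (3 of 13837 genes, 0.0217%), 6 had an unadjusted p under 0.05, and DESeq2 called 0 (0.795%). Without the 0 h library of Experiment 1, 8 members were called there, where 18.0% of all genes were, which is near the same share.

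Whether Dox altered the SAG response was tested as a difference of differences. At 19 h and at 30 h 0 of the 35 members and 0 of 14354 genes (0.0%) were called by edgeR, 0 members had an unadjusted p under 0.05 and DESeq2 called 0 (0.0%). Cth had the largest difference of a member with at least 10 CPM at 19 h, -0.87 (SE 0.43, adjusted p = 1), and Nupr1 at 30 h, -0.53 (SE 0.57, adjusted p = 1). With 1 Dox library per time these errors are wide. The fitted differences also take in Experiment 1. Nupr1 at 30 h changed by -0.94 with Dox and -1.11 without Dox in Experiment 2, and by 0.25 in Experiment 1. Within Experiment 2 alone its difference thus had the other sign. Cth at 19 h changed by -1.23 with Dox and -0.71 without Dox in Experiment 2, and by 0.02 at 17 h in Experiment 1.

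The second comparison set SAG cells with Gli1 UMIs against those without, within each library. Gli1 is the transcription factor gene that Hedgehog signalling switches on most directly. Cells with at least 10000 UMIs were thinned to 10000, and a cell was called Gli1-positive with at least 1 Gli1 UMI left. At 19 and 30 h 21.2% (95% exact interval 19.4% to 23.1%) and 27.4% (25.2% to 29.7%) of cells were positive with Dox, and 6.78% (5.84% to 7.81%) and 16.2% (14.6% to 17.9%) without Dox in Experiment 2. In Experiment 1 9.02% (6.75% to 11.8%) and 3.94% (2.48% to 5.90%) were positive at 17 and 30 h, which is 49 and 22 cells. At 0 h the share was 0.151% with Dox, 0.0377% without Dox in Experiment 2 and 0.436% in Experiment 1.

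Gli1-positive cells had less RNA of the ATF4 genes. Of 33 members that passed the filter on low counts, 21 fell and 0 rose (edgeR, library as a block, adjusted p under 0.05), where 670 of 10781 genes (6.21%) fell and 295 (2.74%) rose. The median change over the 33 was -0.29, beside about 0 over all genes, and 30 lay below 0. The members left out were Slc7a11 and Slc7a3, with 5 and 3 UMIs in all positive cells. Per 10000 UMIs the 35 genes summed to 22.5 in positive and 27.6 in negative cells at 19 h with Dox, to 24.3 and 29.6 at 30 h with Dox, to 24.6 and 30.3 at 19 h without Dox, to 26.2 and 34.7 at 30 h without Dox, and in Experiment 1 to 33.3 and 38.5 at 17 h and 37.7 and 41.8 at 30 h. The positive cells were lower in each of the 6 libraries. Most of the gap in Experiment 1 came from Ddit3: without it the sums were 26.8 and 28.2 at 17 h and 28.7 and 30.4 at 30 h, a log2 ratio of -0.07 and -0.09, beside -0.28 to -0.42 in the 4 libraries of Experiment 2. Of the 33 members, 27 and 30 were lower in positive cells at 19 and 30 h with Dox, 27 and 29 without Dox in Experiment 2, and 21 and 15 at 17 and 30 h in Experiment 1; over all genes tested 43.9% to 53.7% were lower in a library.

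The serine pathway fell in all 3 enzymes. Psat1 had 0.678 and 0.697 UMIs per 10000 in positive cells at 19 and 30 h with Dox, 0.511 and 0.642 without Dox in Experiment 2 and 0.653 and 0.773 in Experiment 1, against 0.967 and 1.17, 0.802 and 1.18, and 0.870 and 0.989 in the negative cells of the same libraries. It was lower in 6 of 6 libraries, by 0.70 in log2 units (SE 0.06, adjusted p = 1.64e-16). Phgdh had 0.910, 0.842, 1.07, 0.849, 0.714 and 1.0 UMIs per 10000 in positive cells, against 1.25, 1.32, 1.53, 1.52, 0.951 and 1.09 in negative cells in the same order of libraries, and fell by 0.63 (SE 0.05, adjusted p = 4.48e-16). Psph had 0.305, 0.289, 0.489, 0.349, 0.245 and 0.318 in positive cells, against 0.492, 0.449, 0.760, 0.570, 0.235 and 0.151 in negative cells, and fell by 0.66 (SE 0.08, adjusted p = 1.56e-10). Psph was lower in the 4 libraries of Experiment 2 and higher in both of Experiment 1, and its DESeq2 adjusted p was 0.112. Shmt2 fell by 0.63 (SE 0.08, adjusted p = 1.06e-08), with 0.193 to 0.315 UMIs per 10000 in positive and 0.334 to 0.536 in negative cells over the 6 libraries, lower in 6 of 6. Mthfd2 fell by 0.39 (SE 0.07, adjusted p = 2.99e-06), lower in the 4 libraries of Experiment 2 (0.446 to 0.657 in positive, 0.645 to 0.899 in negative cells) and higher in both of Experiment 1. Asns fell by 0.57 (SE 0.05, adjusted p = 2.39e-14); it had 0.924, 1.11, 1.11, 1.30, 1.90 and 1.55 UMIs per 10000 in positive cells and 1.44, 1.54, 1.62, 2.23, 1.68 and 1.74 in negative cells, and the 17 h library of Experiment 1 was the exception to its direction. Chac1 fell by 0.69 (SE 0.11, adjusted p = 1.51e-06) and was lower in 5 of 6 libraries.

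Of the regulators described above, Atf4, Ddit3, Nupr1 and Eif4ebp1 fell as well, while Trib3 and Ppp1r15a did not pass. Atf4 had 1.47, 1.83, 1.26, 1.94, 3.61 and 3.36 UMIs per 10000 in positive cells, against 1.92, 2.07, 1.82, 2.34, 4.26 and 4.44 in negative cells, lower in 6 of 6 libraries, by 0.35 (SE 0.04, adjusted p = 2.23e-09). Ddit3 had 0.729, 0.675, 1.98, 1.57, 6.45 and 9.05 in positive cells, against 0.947, 0.863, 1.91, 1.65, 10.3 and 11.3 in negative cells, and fell by 0.32 (SE 0.05, adjusted p = 9.53e-07). Its gap was widest at 17 h in Experiment 1, and the 19 h library without Dox went the other way. Nupr1 fell by 0.44 (SE 0.04, adjusted p = 1.17e-13) with 2.01, 2.23, 3.39, 2.27, 1.43 and 1.86 in positive cells, against 2.63, 2.74, 4.57, 3.39, 1.73 and 1.90 in negative cells. Eif4ebp1 fell by 0.38 (SE 0.04, adjusted p = 4.12e-12), lower in 5 of 6 libraries. Of the synthetases, Gars (by 0.29, SE 0.05, lower in 6 of 6 libraries), Nars (by 0.29), Sars (by 0.24) and Aars (by 0.21) fell, and Wars (-0.25, adjusted p = 0.247) and Mars1 (-0.23, adjusted p = 0.106) did not pass. Of the carriers, Slc7a5 (by 0.51), Slc1a5 (by 0.44) and the arginine carrier Slc7a1 (by 0.38) fell. Cth (by 0.97, SE 0.22), Aldh18a1 of proline synthesis (by 0.35) and Gpt2, an alanine aminotransferase (by 0.29), completed the 21. Pycr1, which closes proline synthesis, had -0.23 (SE 0.14, adjusted p = 0.357) and Trib3 -0.16 (SE 0.10, adjusted p = 0.382). The 3 members above 0, named after their values were seen, were Vldlr, a lipoprotein receptor (0.52, SE 0.32, adjusted p = 0.385), Sesn2, a leucine-sensing stress protein (0.12), and Slc38a2, a glutamine carrier (0.06).

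**Figure D2:**
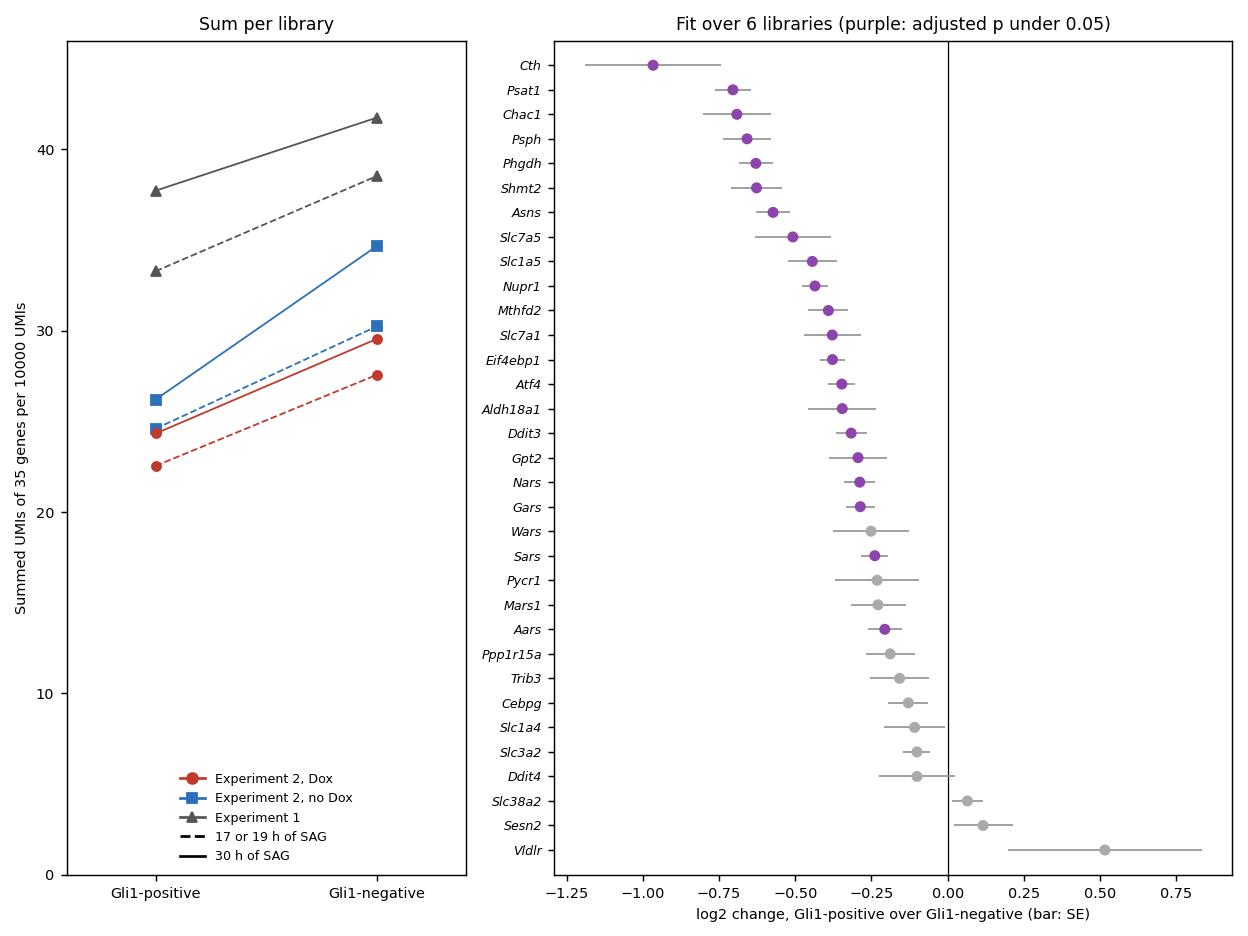
Left, summed UMIs of the 35 genes per 10000 UMIs (vertical axis) in Gli1-positive and Gli1-negative SAG cells, each line joining the values of 1 of 6 libraries; right, log2 change of positive over negative cells of 33 members (points, purple where the adjusted p is under 0.05) with its SE. In each of the 6 libraries the positive cells lie lower, for example at 26.2 against 34.7 in negative cells at 30 h without Dox in Experiment 2, and 30 of 33 points lie below 0.

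Ddit3, Mars1 and Shmt2 lie near Gli1 on chromosome 10 (GRCm38, GENCODE vM21): Ddit3 at 127290774 to 127296288 on the plus strand, 33.6 kb from Gli1, Mars1 at 127296221 to 127311786 on the minus strand, 18.1 kb away and overlapping the end of Ddit3, and Shmt2 at 127517123 to 127522444, 175.1 kb away. Ddit3 and Shmt2 are among the 21 members that fell, and the other 19 lie on other chromosomes. The counting strand is not given in the sources used here, so UMIs in the overlap of Ddit3 and Mars1 could be assigned to either. A further Ddit3 ID overlaps the same place and had 0 UMIs in all libraries.

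Genes of the cell cycle moved with Gli1 status. Of 18 genes of the G2 to M phases, 17 fell in Gli1-positive cells (median -1.55), and of 16 tested genes of S phase 9 fell (median -0.48), where 6.21% of all genes fell. Gli1-positive cells also had fewer UMIs before thinning, with medians of 42362 in positive and 47401 in negative cells at 30 h with Dox. Among cells with no UMI of the G2 to M list, 17 of 32 members fell and 0 rose (3.37% of 9679 genes fell), with the same median of -0.29, and Psat1 fell by 0.64 (SE 0.08, adjusted p = 1.01e-12) there. Among cells with no UMI of the S phase list either, which left 48 and 52 positive cells with Dox, 55 and 64 without Dox in Experiment 2 and 7 and 1 in Experiment 1, the median of 28 members was -0.20, and Nupr1 (by 0.47, SE 0.10, adjusted p = 0.00166) and Asns (by 0.53, SE 0.12, adjusted p = 0.00326) fell, where 12 of 6778 genes (0.177%) did. In cells above the median of UMIs of their library 15 of 32 members fell (3.82% of genes), and in the cells at or below it 11 of 32 (1.84% of genes). DESeq2 called 12 of 33 members lower (2.51% of genes), and a fit without the library as a block called 0, with 3 of 10078 genes (0.0298%). Without the shallow library at 19 h without Dox 19 members were called, all lower (6.63% of genes in either direction).

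Cells split by Ptch1 or by the added feature GFP_g1 gave a members' median of the same sign, -0.37 for each. Ptch1, the Hedgehog receptor and a target of the pathway, and the added feature GFP_g1 were higher in Gli1-positive cells, by 0.58 each (SE 0.06 and 0.07). Between cells positive and negative for Ptch1, 27 of 34 members fell and 1, Vldlr, rose (13.3% of 11263 genes fell and 8.98% rose). Between cells positive and negative for GFP_g1, 22 of 34 fell and 0 rose (10.2% of 11157 genes fell).

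Lists of related genes, none of them members, are given by count for Gli1 status. They are to be read against the 6.21% of all genes that fell and the 2.74% that rose. Of 26 other ATF4 and CHOP targets 10 fell and 0 rose (median -0.18), with Lonp1, a mitochondrial protease, by 0.37 (SE 0.05), Bcat1, an aminotransferase of branched-chain amino acids, by 0.62 (SE 0.10) and Ero1l, an oxidase of the endoplasmic reticulum, by 0.42 (SE 0.07). Of 16 other cytosolic transfer RNA synthetases 5 fell (median -0.16), of 17 other serine and folate enzymes 2 (median -0.20), of 20 genes of the unfolded protein response of the endoplasmic reticulum 3 (median -0.06), among them the chaperone Hspa5 by 0.32 (SE 0.04), and of 17 genes of the eIF2 alpha kinases, eIF2B and other regulators 2 (median -0.06). Of 15 NRF2 targets 6 fell (median -0.19) and of 13 p53 targets 0 of 13 changed (median 0.05). None of these genes rose.

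The same relation was described cell by cell. Over the 32 members that averaged 0.05 or more UMIs in thinned cells, the median over 6 libraries of Pearson's r with Gli1 was below 0 for 29, and the median over members was -0.03, beside 0.00 over 8838 genes. The libraries differed: 5 of the 32 members were below 0 in 6 of 6 libraries, beside 4.49% of all genes. Asns had a median of -0.10, which ranked 5 from the lowest of all genes. It had -0.08 to -0.16 in the libraries of Experiment 2, but 0.02 and -0.04 at 17 and 30 h in Experiment 1. Such weak values of sparse counts are given as description, and the cells of a library share its depth and its cycling fraction. The members' summed UMIs in turn correlated with the log of a cell's UMIs before thinning at r of 0.263 and 0.273 at 19 and 30 h with Dox, 0.143 and 0.283 without Dox in Experiment 2 and 0.10 and 0.129 in Experiment 1. The part of depth in the Gli1 result beyond the splits above was not tested.

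The third comparison set Dox against no Dox in Experiment 2, over 3 SAG times with 1 library of each kind per time. Direction and calls both depended on the scaling: 32 of the 35 members lay below 0 with TMM factors, but 19 below and 16 above 0 with library totals (median -0.43 and -0.03). With TMM factors 22 of 35 members fell and 1 rose, where 19.2% of 13645 genes fell and 19.2% rose. With library totals in place of TMM the median of all genes moved to 0.41 (3.55% of genes fell, 50.9% rose), and 8 members fell and 3 rose. Relative to the median of all genes the members' median was -0.44 under either scaling, with 32 of 35 below it. A change of scaling moves all genes of a library together, so this agreement is given by construction. It does not tell whether the members fell. Ribosomal protein genes, which took 360473, 298179 and 297483 CPM at 0, 19 and 30 h with Dox and 415169, 369293 and 353648 without, moved with Dox in library composition; their part in the result was not tested.

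Ddit3 fell most among the called members, by 1.32 with TMM (SE 0.13, adjusted p = 8.7e-11) and by 0.92 with library totals (adjusted p = 1.75e-07). The other members that fell under both scalings were Cth by 0.92 (SE 0.12, adjusted p = 6.43e-08), Ppp1r15a by 0.78 (SE 0.11), Psph by 0.87 (SE 0.13), Slc7a11 by 1.02 (SE 0.16), Nupr1 by 0.87 (SE 0.15), Asns by 0.70 (SE 0.13) and Eif4ebp1 by 0.74 (SE 0.14). Each of these 8 was lower with Dox at 0, 19 and 30 h in the values given above. At 0 h, before SAG, the difference was already -1.18 for Ddit3, -0.67 for Cth, -0.73 for Nupr1 and -0.57 for Asns. Slc38a2 rose under both scalings, by 0.51 with TMM (SE 0.13, adjusted p = 0.00194), with 191, 165 and 146 CPM with Dox, against 153, 100.2 and 104 CPM without Dox. Chac1 (by 0.71, SE 0.11), Slc1a5 (by 0.67), Slc7a5 (by 0.59), Mthfd2 (by 0.61), Phgdh (by 0.63), Nars (by 0.62), Sars (by 0.58), Ddit4 (by 0.51), Shmt2 (by 0.41), Gars (by 0.43) and Atf4 (by 0.44, SE 0.13, adjusted p = 0.00747) fell with TMM only. Trib3 (by 0.33), Pycr1 (by 0.30) and Wars (by 0.38) fell with TMM and lay at 0.06, 0.09 and 0.01 with library totals. With library totals Gpt2 and Sesn2 rose beside Slc38a2, by 0.39 and 0.54 (adjusted p = 0.0222 and 0.0039); with TMM they had -0.01 and 0.14 and did not pass. Psat1 (-0.30, adjusted p = 0.0502), Slc3a2, the heavy chain shared by several exchangers (-0.30, adjusted p = 0.0623), and Mars1 (-0.26, adjusted p = 0.0547) missed the threshold. Without the 0 h library with Dox 15 members were called (21.0% of genes), as without the 0 h library lacking Dox (21.2%), and without SAG time as a block 0 were (1.46% of genes). Without the shallow library at 19 h without Dox 24 were called (27.5% of genes). At each time taken alone 32, 29 and 33 of 35 members were below 0 at 0, 19 and 30 h, with TMM.

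**Figure D3:**
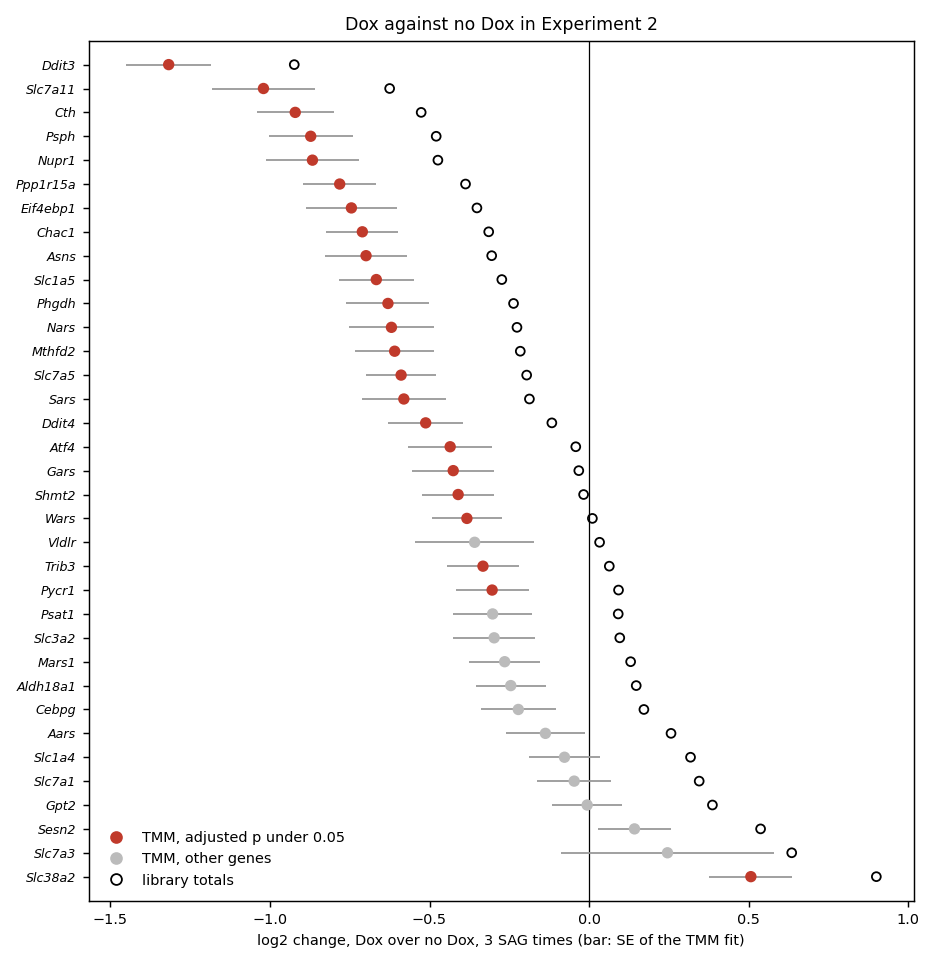
Log2 change of Dox over no Dox (horizontal axis) of the 35 members over 3 SAG times: filled points with TMM factors (red where the adjusted p is under 0.05, bar the SE), open circles with library totals. The filled points run from -1.32 for Ddit3 to 0.51 for Slc38a2, and the open circles stand to their right.

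Related lists are given by count for Dox, with TMM, to be read against the 19.2% of all genes that fell and the 19.2% that rose. Of 28 other ATF4 and CHOP targets 12 fell and 0 rose (median -0.28), among them Ero1l by 1.13 (SE 0.12), Jdp2, a partner of ATF factors, by 0.70 (SE 0.12), and Fgf21, a stress hormone, by 1.85 (SE 0.34). Of 20 genes of the unfolded protein response 10 fell (median -0.30), of 16 other synthetases 7 (median -0.26), and of 17 genes of the eIF2 alpha kinases, eIF2B and other regulators 5 fell and 2 rose (median 0.06). Of 20 other serine and folate enzymes 1 fell and 2 rose, of 15 NRF2 targets 4 fell and 2 rose, and of 13 p53 targets 4 rose, led by Cdkn1a, an inhibitor of cyclin-dependent kinases, by 0.76 (SE 0.14). Of 18 genes of the G2 to M phases 15 fell (median -0.57) and of 18 of S phase 3 fell and 1 rose. The part of these cycle genes in the change of the ATF4 genes was not tested. With library totals, summed CPM did not fall alike. At 0, 19 and 30 h the other ATF4 and CHOP targets had 1445, 1845 and 1882 with Dox and 1288, 1544 and 1973 without. Other synthetases had 919, 1197 and 1268 against 880, 1035 and 1351. The G2 to M genes had 194, 257 and 270 against 254, 245 and 272. Genes of the unfolded protein response had 2153, 2568 and 2830 against 2207, 2574 and 3239. These sums were not tested. Gli1 and Ptch1 rose with Dox, by 0.94 (SE 0.14) and 0.80 (SE 0.14).

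The fourth comparison set Experiment 2 against Experiment 1, without Dox, over 3 times. The experiments differ in software version, annotation and depth, and these cannot be told apart from the cells. Of the ATF4 genes, 14 of 35 were higher and 6 lower in Experiment 2, where 20.6% of all 13015 genes were higher and 19.9% lower (with library totals, which moved the median of all genes to -0.47, 5 higher and 8 lower, beside 9.27% and 34.5% of genes). Higher in both scalings were Psph by 2.16 (SE 0.22, adjusted p = 9.07e-07), Slc7a11 by 1.98 (SE 0.32), Nupr1 by 1.66 (SE 0.29), Nars by 1.34 (SE 0.25) and Chac1 by 1.18 (SE 0.22). Lower in both were Ddit3 by 2.03 (SE 0.28, adjusted p = 2.64e-05), Vldlr by 1.39 (SE 0.29), Atf4 by 0.83 (SE 0.24, adjusted p = 0.0106), Ppp1r15a by 0.79 (SE 0.19), Slc3a2 by 0.74 (SE 0.23) and Trib3 by 0.55 (SE 0.20). The 6 lower members are a share near that of all genes. With TMM alone, Phgdh, Pycr1, Cth, Slc1a5, Slc7a5, Gpt2, Ddit4, Sesn2 and Eif4ebp1 were higher, by 0.62 to 0.93. Asns (0.44, adjusted p = 0.119), Shmt2 (0.43) and Wars (0.41) did not pass. Of the 20 genes of the unfolded protein response 9 were lower and 1 higher, of 28 other ATF4 and CHOP targets 5 lower and 7 higher, and of 18 G2 to M genes 12 lower. The count of called members was 11 without the 17 h library of Experiment 1 (19.1% of genes) and 14 without the shallow 19 h library of Experiment 2 (21.5% of genes).

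**Figure D4:**
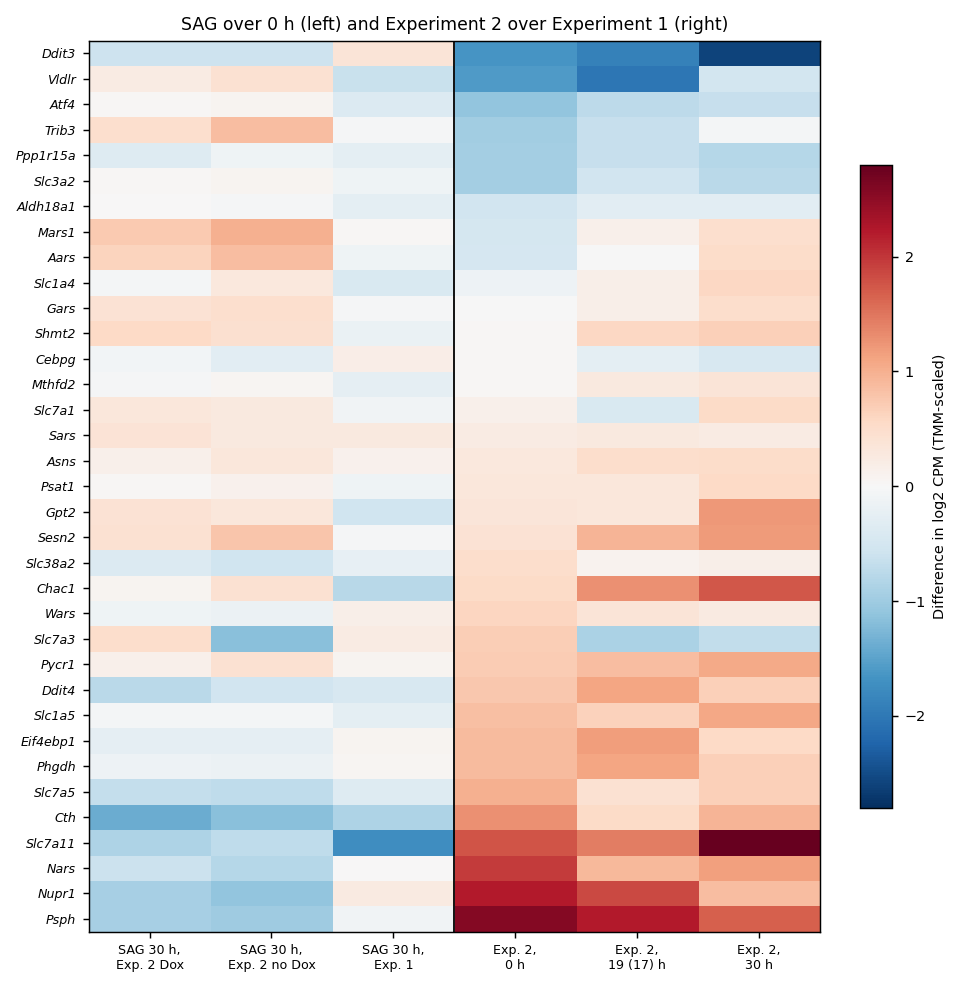
Difference in log2 CPM (colour, red higher and blue lower) of the 35 members: left 3 columns, 30 h of SAG over 0 h in each arm; right 3 columns, Experiment 2 over Experiment 1 without Dox at 0 h, 19 h (17 h in Experiment 1) and 30 h. Rows are ordered by the difference at 0 h, which runs from -1.64 for Ddit3 to 2.57 for Psph, while the columns of SAG run from -1.75 for Slc7a11 in Experiment 1 to 0.99 for Mars1 without Dox in Experiment 2.

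Within libraries the members varied together to different degrees. The correlation of each member with the sum of the other 34 across thinned cells had a median over the 9 libraries of 0.55 for Eif4ebp1 and for Asns, 0.50 for Phgdh, 0.46 for Psph, Atf4 and Mthfd2, and 0.43 for Nupr1 and Nars. At the other end stood Ddit4, Slc38a2 and Wars with 0.08, Sesn2 with 0.06, Slc7a3 with -0.03 and Vldlr with -0.05. For 21 of the 35 members all 6 values of Experiment 2 lay above all 3 of Experiment 1, and for 1, Ppp1r15a, below. This difference was not tested. Asns had 0.58, 0.63 and 0.63 with Dox, 0.52, 0.55 and 0.63 without Dox in Experiment 2, and 0.25, 0.19 and 0.17 in Experiment 1. Phgdh had 0.56, 0.58 and 0.57 with Dox and 0.46, 0.50 and 0.55 without Dox in Experiment 2, and 0.09, 0.09 and 0.01 in Experiment 1. Atf4 had 0.41, 0.51 and 0.55 with Dox, 0.36, 0.44 and 0.49 without Dox, and 0.47, 0.44 and 0.46 in Experiment 1. The factor's own RNA thus followed the sum of the others, Ddit3 included, in all 3 arms. Ddit3 had 0.32, 0.44 and 0.41 with Dox, 0.04, 0.15 and 0.20 without Dox, and 0.19, 0.10 and 0.22 in Experiment 1. Of all pairs, Asns with Phgdh (0.44), Asns with Eif4ebp1 (0.41) and Phgdh with Eif4ebp1 (0.39) were the closest. Ddit3 was closest to Atf4 (0.25), Nupr1 (0.23), Slc3a2 (0.20) and Ppp1r15a (0.15). These are descriptions across cells that share a library, its depth and its cycling fraction.

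**Figure D5:**
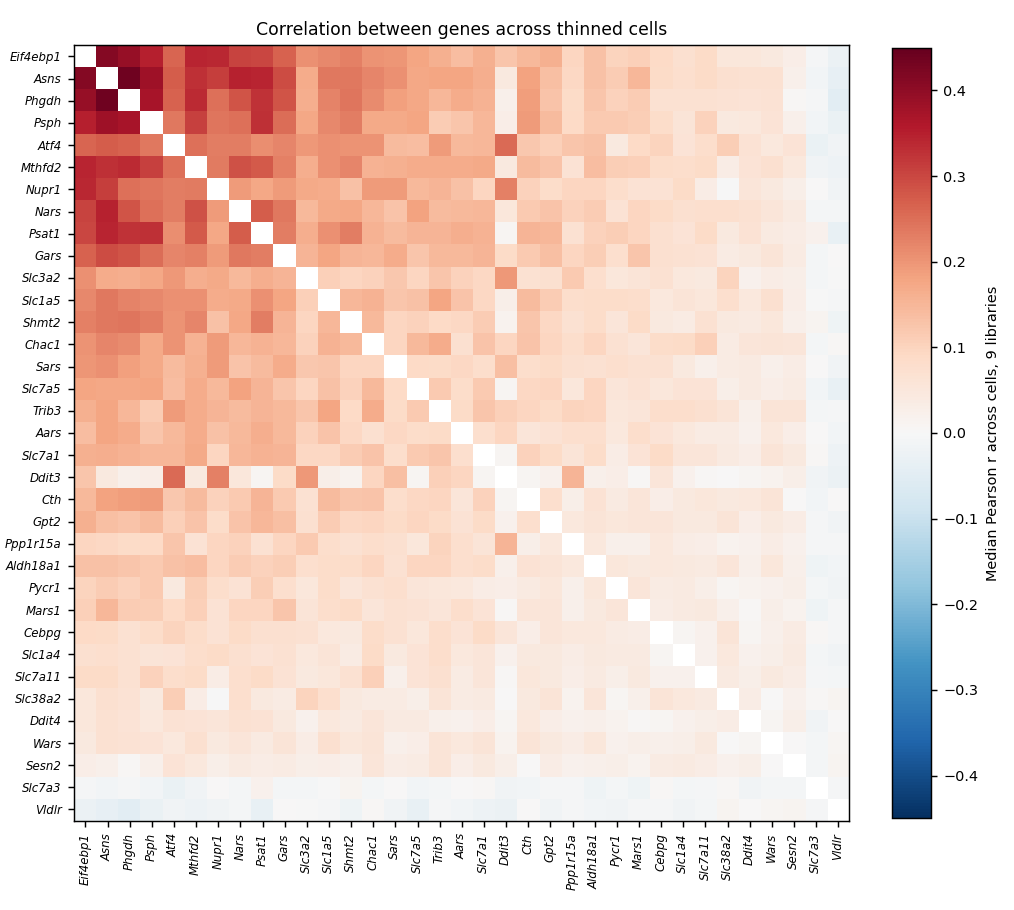
Pearson's r between pairs of the 35 members across thinned cells (colour, median over 9 libraries), ordered by each member's correlation with the sum of the others; the diagonal is blank. Asns, Phgdh and Eif4ebp1 form the dark corner, with 0.44 for Asns with Phgdh, and Ddit3 stands out for Atf4, Nupr1, Slc3a2 and Ppp1r15a.

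Outside the list, the 5 genes whose counts correlated most with the members' sum, by the median r over 9 libraries among 8730 genes that averaged 0.05 or more UMIs, were Lgals1 (0.51), Fdps (0.48), Hspa9 (0.47), Ran (0.46) and Ldha (0.43). The median over the 8730 genes was 0.00 and the 99th percentile 0.25. Hspa9, a chaperone of mitochondria, kept 0.43 to 0.51 in Experiment 1, where Lgals1, Fdps and Ldha were at or below 0 (-0.24 to -0.00) and Ran, a GTPase of nuclear transport, at 0.08 to 0.13. The members' sum included Ddit3, whose weight in Experiment 1 is given above.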

How the data were processed

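RNA of single cells of 9 libraries was counted as UMI counts per gene and barcode; the authors deposited these raw counts unnormalized, made with Cell Ranger on mm10 per the submitters' processing notes (versions 3.1.0 for Experiment 1 and 6.0.1 for Experiment 2, per the file headers). Strand and intron settings are not given in the sources used here. The 35 members and the gene lists were chosen with earlier results of these data known. Features shared by both annotations (30407) were summed over kept barcodes per library and tested with edgeR 4.0.16 in R 4.3.3 (filterByExpr, TMM factors, quasi-likelihood test, Benjamini-Hochberg adjustment over all genes, called at 0.05); SE is of the log2 change. SAG was tested with the experiment as a block, or the arm for the 3 arms, Dox with SAG time as a block, the experiments with SAG time as a block, and Gli1 status with the library as a block. The experiment is named in the titles, and deviations of libraries from their group means correlated within experiments at 0.68 to 0.79. Each condition has 1 library per experiment, nothing says that libraries came from separate cultures, and p-values therefore measure the spread between libraries, which may be technical. For Gli1 status both sums compared come from the same library, and the fit shares its spread between genes. Small p-values there do not show that the libraries agree: Psph passed although it was higher in positive cells in both libraries of Experiment 1. Per-cell values used cells thinned to 10000 UMIs; exact intervals cover counting error only. Doublets were not removed. The value of 1 marker gene is not reported here. UMIs outside the shared features made up 0.071% to 0.858% of a library. On simulated counts with known folds, 88 (SAG at 30 h without Dox) to 99 (Dox) of 100 genes changed 2-fold were called. Unchanged genes were called in 6 (SAG at 30 h without Dox) to 16 cases (SAG at 30 h over 3 arms). The simulated counts had the same spread for all genes and no differences between experiments, arms or times. Genes of low counts were not among those changed. The simulation therefore checks the fits and does not give the share of real changes called in these data.

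Named were Atf4, Ddit3, Asns, Chac1 and Trib3, called members (at most 12 in full, by smallest adjusted p), the 3 uncalled members of largest change that reach 10 CPM, and up to 3 called genes of each list. Alternatives were DESeq2 1.42.0, RLE factors, no filter, other cell filters, no block and each library left out; library totals, the splits of Gli1 cells by depth and cycle genes, and Ptch1 and GFP_g1 status were chosen after seeing the data.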

Additional observations from a re-analysis of the deposited data

How the results depend on the processing

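The settings that moved counts of called members differed between comparisons. For SAG at 30 h without Dox, with 0 called, the count was 1 with no filter on low counts (210 of 20991 genes). It was 1 with cells of 1% to 10% mitochondrial UMIs (74 of 14164) and 1 with 10000 or more UMIs per cell (94 of 14371). With a library left out it was 0 to 2, and 2 where 1276 of 14355 genes were called. Over the 3 arms at 30 h, with 3 called (785 of 13837 genes), DESeq2 gave 7 (13.6% of genes) and library totals 0 (0.0867%). No filter gave 6 (2212 of 20991 genes) and thinned cells 6 (1054 of 11952), in each with 1 member higher. No replicate block gave 0 (0 of 13452 genes). A library left out gave 0 to 15, and 15 where 43.3% of genes were called. At 17 to 19 h a library left out gave 0 to 8, and 8 where 18.0% of genes were called. For Dox, with 23 called (5233 of 13645 genes), library totals gave 11 (7425 of 13645) and no replicate block 0 (1.46% of genes). A library left out gave 15 (21.0% or 21.2% of genes) to 25 (3747 of 14062 genes). Between experiments, with 20 called (5270 of 13015 genes), library totals gave 13 (5702 of 13015). A library left out gave 11 (19.1% of genes) to 19 (4844 of 13922 genes). For Gli1 status, with 21 called, all lower (6.21% of genes were lower), DESeq2 gave 12 (2.51% lower) and no replicate block 0 (0.0298%). Cells at or below the median of UMIs gave 11 (1.84% lower), and cells with no UMI of the S or G2 to M lists 2 (0.177% lower). A library left out gave 18 to 21. The change with Dox turned to 0.0634 for Trib3, 0.0923 for Pycr1 and 0.0104 for Wars with library totals, a scaling that by construction moves all genes together (their median to 0.41); relative to that median the members' median stayed at -0.44. Over single called members, 280 values with Dox kept their call under an alternative and 62 lost it, 267 and 33 between experiments, 307 and 89 for Gli1 status, and 28 and 26 for SAG over 3 arms. Slc7a3 (8 to 38 UMIs per library) and Slc7a11 in Experiment 1 are limited by depth.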
